A study of Aspergillus nidulans with 38 samples.

Results

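The comparison described here set *Aspergillus nidulans* mycelium at 5 min of micafungin against mycelium from the same flasks at 0 min. It took in 6 of the 38 RNA-seq libraries of a course with 13 time points, chosen by their labels: the 3 libraries at 5 min and the 3 at 0 min. All came from the parental strain, FGSC A1405 (written AN1405 among its labels), and no mutant was involved. Each of the 3 flasks was a shake-flask culture grown for about 20 h. Micafungin was then given at 20 ng/ml of culture for each 1 g/kg of biomass. Each flask was sampled in series, so each 5 min library has a 0 min library of its own flask. The 0 min libraries carried no drug, and an untreated culture at 5 min was not analysed here. Micafungin and the sampling and time that go with it therefore cannot be told apart.

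Micafungin is an echinocandin that blocks the synthase of β-1,3-glucan, the main load-bearing polymer of the fungal wall. Wall damage is sensed by membrane proteins and passed through Rho1, protein kinase C and a mitogen-activated protein (MAP) kinase cascade, the cell wall integrity pathway, to transcription factors. In filamentous fungi the HOG osmotic stress cascade and the calcium-calcineurin route also respond to wall stress. A transcript level at 5 min can show only what synthesis and decay of RNA alter within that time, so the comparison asks which transcripts already differed this early. In such bulk RNA, fewer cells of a type and less RNA per cell cannot be told apart.

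The 5 min libraries held 7746334, 9816336 and 7517790 counted reads in flasks 1, 2 and 3, and the 0 min libraries held 5973782, 10036333 and 6696372. Levels below are normalized counts, that is, read counts divided by DESeq2 size factors. They are not scaled by gene length and so are compared between libraries and not between genes. The hyphal markers *actA*, *tubA*, *benA*, *fksA* and *chsB* together took 0.661 to 0.763% of reads at 5 min and 0.649 to 0.79% at 0 min. The 8 markers of conidiophores and conidia together took 0.00201 to 0.00289% at 5 min and 0.00202 to 0.00245% at 0 min, so the mycelium read as vegetative hyphae at both times. *ivoB* had no reads in flask 3 at 0 min, and every other marker had reads in each library.

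Few transcripts differed alike in the 3 flasks at 5 min. The smallest p-values on the higher side were those of AN5017, AN6404 and AN1279, genes without a name, and on the lower side that of AN7170. The calcium pump gene *pmcB* was among the 12 genes of smallest p on the higher side, and the nitrate transporter gene *crnA* and the ammonium transporter gene *meaA* were among the 12 on the lower side. None of them passed the test over all genes. Of 8290 genes tested, edgeR's quasi-likelihood test with the flask as a block called 0 genes (0%) at an adjusted p under 0.05. The lowest adjusted p was 0.0848. An unadjusted p under 0.05 was reached by 344 genes on the higher side (4.15%) and 224 on the lower side (2.7%), or 568 in all (6.85%). With the same block, limma-voom also called 0 genes (356 higher and 232 lower at an unadjusted p under 0.05), whereas DESeq2 called 24 genes higher (0.29%) and 6 lower (0.0724%). Each of these 30 genes lay on the same side of 0 min in all 3 flasks, which their selection from the same libraries favours. Across all genes, 1110 (13.4%) were higher and 1155 (13.9%) lower in every flask. The median log2 fold change over all genes tested was -0.0041.

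The flasks differed from each other in which genes stood apart at 5 min. Among the 6250 genes with a mean normalized count of at least 100, the log2 ratio of 5 min over 0 min had an SD over genes of 0.351 in flask 1, 0.23 in flask 2 and 0.236 in flask 3. Between flasks, Pearson's r of this ratio across genes, which are not independent replicates, was 0.016 for flasks 1 and 2, 0.248 for flasks 1 and 3 and 0.076 for flasks 2 and 3. The count of calls differed when flask 1 was left out. Without it, edgeR called 82 genes higher and 43 lower. In flask 1, 77 of the 82 were also higher and 31 of the 43 also lower, and 103 of the 125 moved one way in all 3 flasks. That fit has 1 residual degree of freedom, and its spread was drawn wholly from the trend over genes (infinite prior degrees of freedom, against 5.55 with all flasks), so the part of the flask and the part of the variance model in these calls cannot be told apart. Without flask 2 or without flask 3, 0 genes were called.

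**Figure D1:**
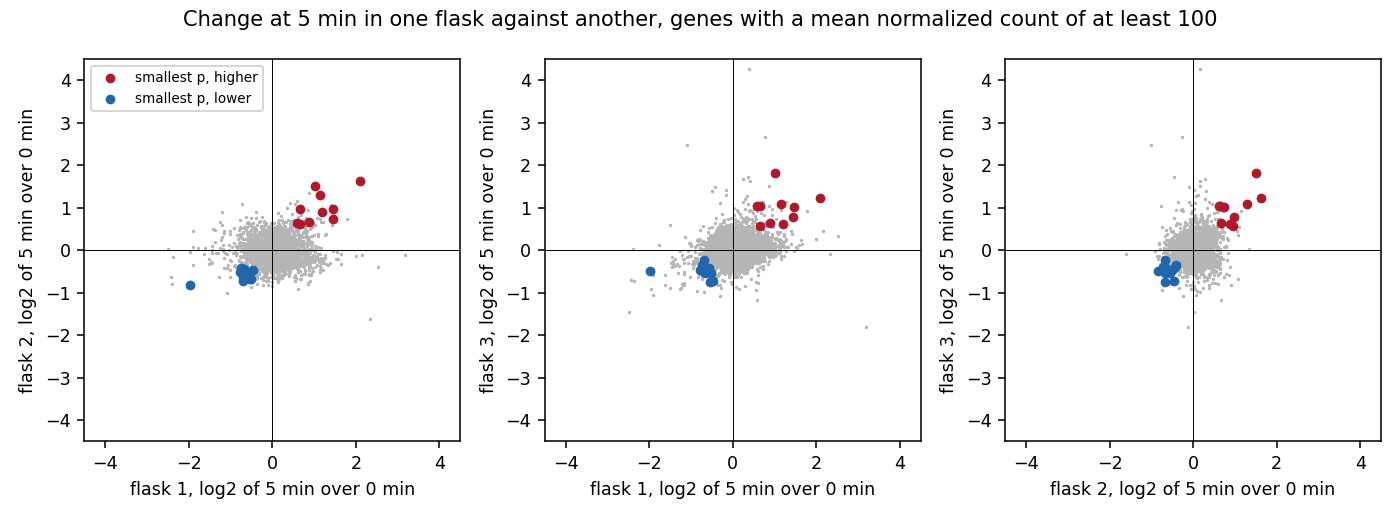
Each point is 1 gene with a mean normalized count of at least 100, placed by its log2 ratio of 5 min over 0 min in one flask (horizontal) and another (vertical). The grey cloud of 6250 genes has little slope (r of 0.016, 0.248 and 0.076 in the 3 panels), and those among the 24 genes of smallest p on the higher side (red) and the lower side (blue) lie in the upper right and lower left, where the rule that chose them puts them.

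The genes described next were taken by a fixed rule: the 12 of smallest p in each direction among those with a mean normalized count of at least 20 and one direction in all 3 flasks. None of the 24 passed edgeR's threshold. The adjusted p ran up to 0.12 on the higher side and 0.307 on the lower side. DESeq2 called 11 of the higher 12 and 4 of the lower 12 (0.29% and 0.0724% of all genes tested). Without flask 1, edgeR called 12 and 10 (82 and 43 of the 8290 genes tested). At 5 min the libraries did not overlap those at 0 min for 8 of the higher 12 (2.52% of all genes tested) and for 3 of the lower 12 (1.75%). The 24 were picked for p and direction in these same libraries, which favours both calls in other fits and non-overlap. None of these counts is therefore a further test. Most of the 24 carry no gene name in the files or in RefSeq and are given by number.

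**Figure D2:**
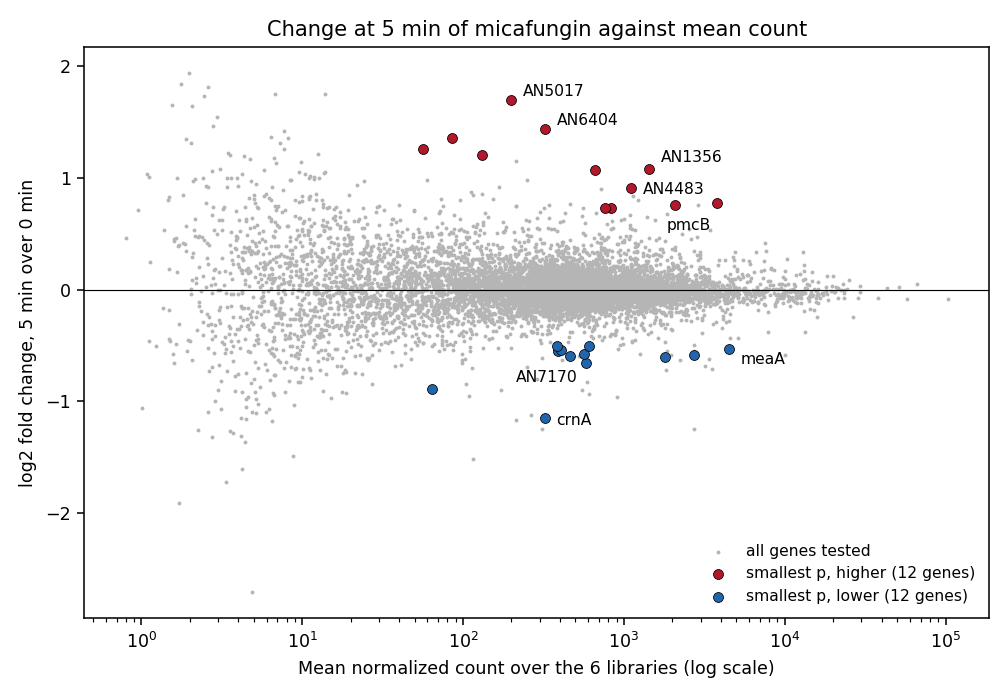
The log2 fold change of 5 min over 0 min (edgeR, vertical) is plotted against the mean normalized count over the 6 libraries (horizontal, log scale) for 8290 genes. The 12 genes of smallest p on the higher side (red) reach 1.70 for AN5017, and the 12 on the lower side (blue) reach -1.15 for *crnA*.

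The largest difference among them was that of AN5017. It had 335, 484 and 97.0 normalized counts at 5 min in flasks 1, 2 and 3, against 78.3, 157 and 41.4 at 0 min. Each flask was more than 2-fold higher at 5 min, while flask 3 at 5 min lay below flask 2 at 0 min, so the groups overlapped although the pairs did not. Its log2 fold change was 1.70 (standard error 0.17, adjusted p = 0.0848, edgeR's quasi-likelihood test). AN6404 followed, with 458, 572 and 371 at 5 min against 226, 201 and 105 at 0 min. Its 5 min libraries all lay above its 0 min libraries, and the fitted log2 difference was 1.43 (standard error 0.15, edgeR's adjusted p = 0.0848). AN1279 had 267, 209 and 71.9 at 5 min against 120, 85.3 and 33.9 at 0 min, a log2 fold change of 1.20.

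The next group had higher counts. AN1356 had 2514, 2241 and 1122 at 5 min, against 920, 1138 and 655 at 0 min, giving a fitted log2 difference of 1.07 (standard error 0.14, edgeR's adjusted p = 0.118). Flask 1 showed the widest gap and flask 3 the narrowest, and flask 3 at 5 min lay just under flask 2 at 0 min. AN4483 had 1945, 1225 and 1204 at 5 min, against 847, 663 and 784 at 0 min, with no overlap and a fitted log2 difference of 0.91 (standard error 0.12, edgeR's adjusted p = 0.118). These genes, with AN4878, were the 3 that passed when all 37 libraries with a known flask entered the edgeR fit (0.0362%, adjusted p = 0.0385 for each). Over the 11 alternatives the adjusted p ranged from 1.11e-09 to 1 for AN1356, 6.56e-07 to 1 for AN4483 and 0.00822 to 1 for AN4878, lowest in each case without flask 1. AN4878 lies outside the rule and was named after its values were seen. It had 2206, 1411 and 1093 at 5 min, against 818, 941 and 840 at 0 min. Its neighbour in the RefSeq assembly, AN4879, also outside the rule, was past 2-fold in every flask, at 10.1, 14.3 and 6.84 normalized counts at 5 min against 2.70, 3.95 and 2.51 at 0 min.

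AN2581, AN7018 and AN4712 also had no overlap between the time points, with log2 fold changes of 1.06, 1.36 and 0.73. AN2822, with the lowest counts of the 12 at 38.8 to 114 normalized counts at 5 min and 18.8 to 44.6 at 0 min, had a log2 fold change of 1.26. AN5213, with the highest, had 4727, 3762 and 5827 at 5 min against 3001, 2448 and 2855 at 0 min. *mfsA* (AN9168) had 1133, 845 and 866 at 5 min against 720, 435 and 581 at 0 min. Each of these 6 genes was higher at 5 min in all 3 flasks.

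A change of at least 2-fold in every flask was rare. It was reached by 9 genes on the higher side (0.109%) and 2 on the lower side (0.0241%). With a mean normalized count of at least 20, 5 remained on the higher side, AN5017, AN6404, AN7018, AN2822 and AN1279, and 0 on the lower side. The other 6 genes had mean normalized counts below this minimum, where a few reads make a 2-fold difference.

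**Figure D3:**
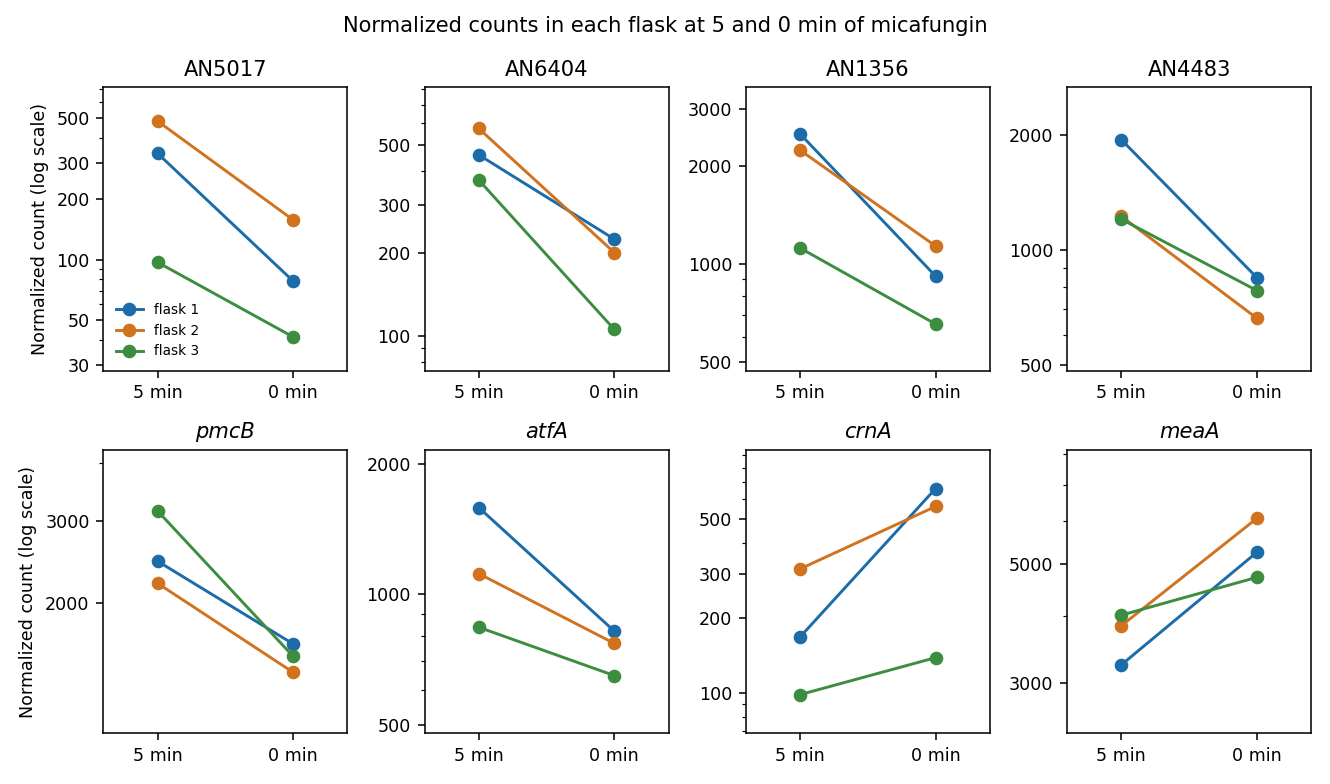
Normalized counts (vertical, log scale) of 8 genes are shown for 5 min and 0 min, with a line joining the libraries of each flask. AN5017, AN6404, AN1356, AN4483, *pmcB* and *atfA* are higher at 5 min in all 3 flasks, and *crnA* and *meaA* are lower.

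Most synthases that build the wall differed little. *fksA* (AN3729), which encodes the catalytic subunit that micafungin inhibits, had 13773, 14268 and 13771 normalized counts at 5 min, against 12361, 14402 and 13700 at 0 min. Its log2 fold change was 0.05 (standard error 0.11, adjusted p = 0.975, edgeR). Of the 11 glucan and chitin synthases, 1 was higher and 1 lower at an unadjusted p under 0.05 (4.15% and 2.7% of all genes). The higher one was *chsC* (AN4566), a chitin synthase, with 2562, 2085 and 2374 at 5 min against 1984, 1762 and 1735 at 0 min. Its libraries did not overlap, and its log2 fold change was 0.36 (standard error 0.09, adjusted p = 0.37, edgeR). The lower one was *celA* (AN8444), which makes a mixed-linkage glucan, at 118, 77.9 and 177 at 5 min against 127, 129 and 246 at 0 min. Without flask 1 its adjusted p in edgeR was 0.0398, and over the 11 alternatives it ranged up to 1. The α-1,3-glucan synthases *agsA* and *agsB* had log2 fold changes of 0.16 and -0.15, neither at an unadjusted p under 0.05.

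No member of the cell wall integrity pathway reached an unadjusted p under 0.05, out of 8 tested. The sensors *wscA* and *wscB*, the GTPase *rhoA*, protein kinase C (*pkcA*) and the kinases *bckA*, *mkkA* and *mpkA* had log2 fold changes between -0.12 and 0.21. The top of that range was *mkkA* (AN4189), the MAP kinase kinase, with 1265, 1279 and 1466 at 5 min against 1215, 1136 and 1124 at 0 min (adjusted p = 0.75, edgeR). *rlmA* (AN2984), the MADS-box factor at the end of the cascade, had 627, 655 and 642 at 5 min against 658, 707 and 655 at 0 min, lower in each flask by a small margin. The median of the list was 0.0046, near that of all genes.

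Among the 12 HOG pathway and glycerol genes tested, 3 were higher and 0 lower at an unadjusted p under 0.05. The shares over all genes tested were 4.15% and 2.7%. *atfA* (AN2911), a bZIP transcription factor that works with the stress MAP kinase SakA, stood first. It had 1587, 1117 and 839 normalized counts at 5 min, against 822, 770 and 649 at 0 min. No 5 min library fell within the 0 min range, and the log2 fold change was 0.62 (standard error 0.12, adjusted p = 0.206, edgeR). DESeq2 called it, as did edgeR without flask 1, with an adjusted p from 0.0209 to 1 over the 11 alternatives. *sakA* (AN1017) itself had 1828, 2138 and 1650 at 5 min against 1499, 1531 and 1511 at 0 min, again with no overlap (log2 fold change 0.30). *ypdA* (AN2005), the phosphotransfer protein of the pathway, was higher in each flask with a log2 fold change of 0.36. *gfdB*, a glycerol-3-phosphate dehydrogenase, had 0.47 at 10.3 to 38.9 normalized counts at 5 min and 8.79 to 26.1 at 0 min. The other 8 members lay between -0.30 and 0.10, and the median of the list was -0.014. Without flask 2, and likewise without the block, 1 member of the list was higher at an unadjusted p under 0.05.

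In the calcium and calcineurin list, 1 of 10 genes reached an unadjusted p under 0.05 (6.85% of all genes). *pmcB* (AN4920) encodes a calcium pump of the vacuolar type. It had 2464, 2209 and 3161 normalized counts at 5 min, against 1635, 1421 and 1538 at 0 min. All 5 min libraries were above all 0 min libraries, most widely in flask 3, and the log2 fold change was 0.76 (standard error 0.11, adjusted p = 0.12, edgeR). DESeq2 called it, as did edgeR without flask 1. The other calcium pumps *pmcA* and *pmrA*, the channel *cchA*, calmodulin, its kinases *cmkA* and *cmkB*, the calcineurin subunits *cnaA* and *cnaB* and *crzA* itself had log2 fold changes between -0.11 and 0.09. For *pmcA* (AN1189), the 5 min counts were 1979, 1770 and 2400, against 2521, 1808 and 1718 at 0 min, with flask 3 on the opposite side from the other flasks.

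On the lower side, the list of nitrogen uptake and assimilation held the most genes with an unadjusted p under 0.05. Of 13 tested, 7 were lower and 0 higher at an unadjusted p under 0.05 (2.7% and 4.15% of all genes). A negative log2 fold change was found for 12, and 7 were lower in all 3 flasks (13.9% of all genes). None passed edgeR's adjusted threshold, and DESeq2 called 2 of them, *crnA* and *niaD*. *crnA* (AN1008), a nitrate transporter, had 167, 314 and 98.1 normalized counts at 5 min, against 660, 559 and 138 at 0 min. The gap was about 4-fold in flask 1 and much smaller in flask 3, and the log2 fold change was -1.15 (standard error 0.25, adjusted p = 0.285, edgeR).

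The neighbouring genes of the nitrate cluster were also lower in each flask. *niaD* (AN1006), nitrate reductase, had 364, 664 and 133 at 5 min against 1038, 834 and 250 at 0 min. *niiA* (AN1007), nitrite reductase, had 2216, 3858 and 964 at 5 min against 6177, 4680 and 1187 at 0 min. Their log2 fold changes were -0.90 and -0.68. *gdhA* (AN4376), the glutamate dehydrogenase that fixes ammonium, had 4833, 8654 and 11190 at 5 min against 9689, 13392 and 12313 at 0 min. *meaA* (AN7463), an ammonium transporter, was the one member named here whose libraries did not overlap, at 3238, 3829 and 4007 at 5 min against 5248, 6070 and 4713 at 0 min (log2 fold change -0.53, standard error 0.12, adjusted p = 0.293, edgeR). The median of the list was -0.34, and within flasks 1, 2 and 3 it was -0.81, -0.24 and -0.14. Flask 1 thus carried most of its size. Without flask 1, 5 members were lower at an unadjusted p under 0.05, and without the block 1 was. The fit without flask 1 has 1 residual degree of freedom and called 43 genes lower over all genes tested. The share over all genes given above belongs to the fit with all flasks, so it is no background for these counts.

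The list of iron uptake and siderophore genes, which also holds the regulators *sreA*, *hapX* and *hapC*, formed a smaller group. All 8 tested had a negative log2 fold change, with a median of -0.26. At an unadjusted p under 0.05, 4 were lower (2.7% of all genes). *mirA* (AN7800), a siderophore transporter, had 41.3, 17.5 and 53.6 normalized counts at 5 min against 64.8, 27.7 and 80.4 at 0 min. The groups overlapped because flask 2 was low at both time points, while every pair was lower at 5 min (log2 fold change -0.62, standard error 0.18, adjusted p = 0.462, edgeR). *mirB*, another siderophore transporter, *sidA*, whose enzyme carries out the first step of siderophore synthesis, and *hapX*, the regulator of iron starvation, had -0.36, -0.35 and -0.30. *sidA* was about equal at both times in flask 3, at 8451 at 5 min against 8378 at 0 min. *sidC*, of the same list, was nearly level in every flask, at 386, 325 and 234 at 5 min against 400, 330 and 229 at 0 min. Without flask 2, 1 member of this list was lower at an unadjusted p under 0.05, DESeq2 with all flasks gave 1, and edgeR without the block gave 0.

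The lower gene of smallest p was AN7170, annotated only with protein dimerization activity. It had 398, 471 and 482 at 5 min, against 579, 757 and 807 at 0 min, with no overlap and a fitted log2 difference of -0.65 (standard error 0.10, edgeR's adjusted p = 0.12). AN8907, annotated with iron ion binding and oxidoreductase activity, had 314, 273 and 788 at 5 min against 496, 401 and 1140 at 0 min. AN4170, which encodes the arrestin-like protein CreD of carbon catabolite repression, had 2051, 1555 and 2909 at 5 min against 3511, 2215 and 4055 at 0 min. Each pair of these 3 genes was lower at 5 min, though flask 3 stood above the other flasks at both times for AN8907 and AN4170. The other members of the 12 were AN0856, AN2891, AN1894, AN0627, AN2648, AN6114 and AN1843, with log2 fold changes between -0.89 and -0.50. Of these, AN1894 had no overlap, at 317, 301 and 333 at 5 min against 467, 472 and 450 at 0 min. AN2648 is annotated as an oxidoreductase that binds FAD.

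**Figure D4:**
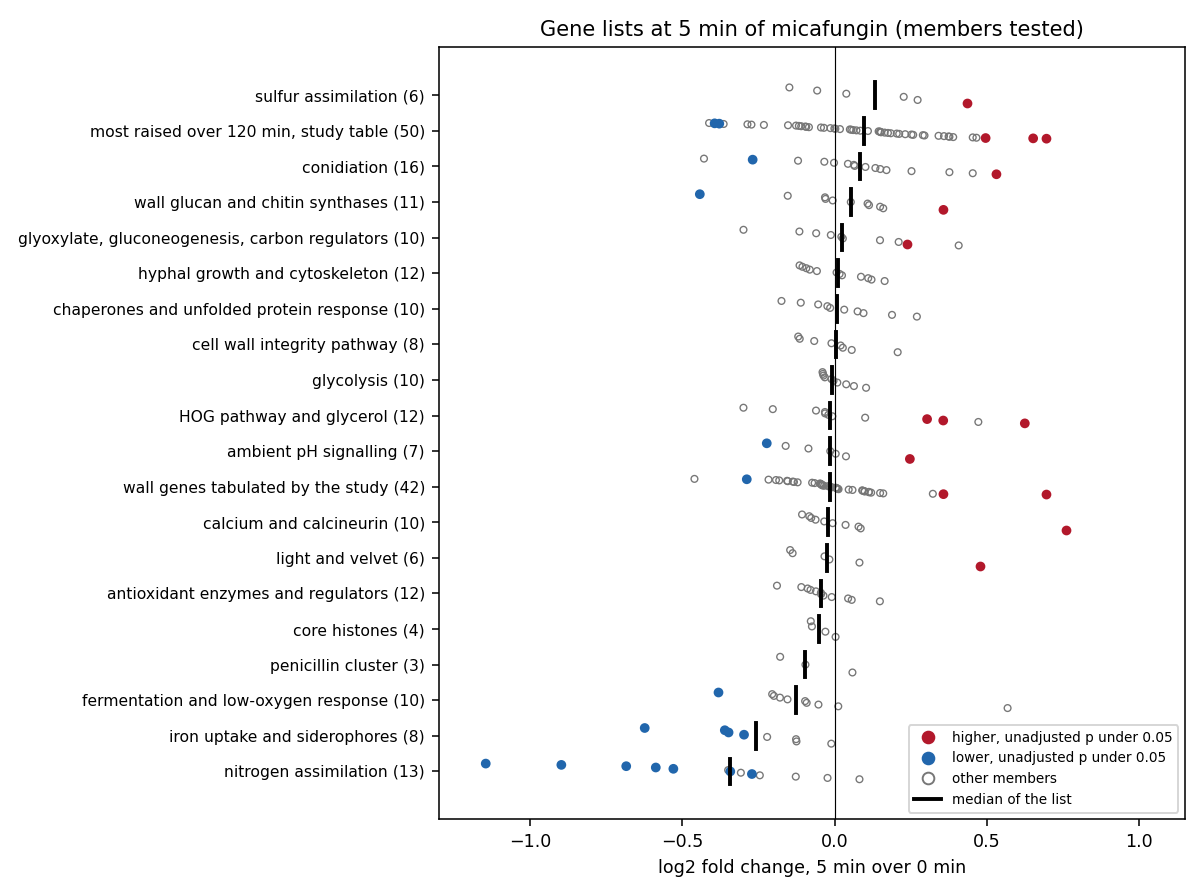
Each circle is 1 gene of a list, placed by its log2 fold change of 5 min over 0 min, with the list median as a black bar and the number of members tested in brackets. Filled circles have an unadjusted p under 0.05 (red higher, blue lower). The medians of 16 lists lie between -0.1 and 0.1, and those of the nitrogen (-0.34) and iron (-0.26) lists lie lowest.

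The remaining lists showed single genes. *flbC* (AN2421), a zinc finger factor upstream of conidiation, had 1402, 1159 and 1563 at 5 min against 944, 755 and 1188 at 0 min, higher in every flask (log2 fold change 0.53, standard error 0.09, adjusted p = 0.159, edgeR). Without flask 1 its adjusted p was 0.00406, and over the 11 alternatives it ranged up to 1. The conidiation regulator *brlA* stayed low, at 8.06, 38.2 and 3.42 at 5 min against 12.2, 25.3 and 1.26 at 0 min. *flbA*, a regulator of G protein signalling, had -0.27. *cryA*, a cryptochrome, *sC*, ATP sulfurylase, *creA*, the carbon catabolite repressor, and *palA* of ambient pH signalling had log2 fold changes of 0.48, 0.43, 0.24 and 0.25, each higher in all 3 flasks. *palB*, of the same pathway, had -0.22. No gene of the chaperone, antioxidant, hyphal growth, glycolysis, histone or penicillin lists reached an unadjusted p under 0.05. The chaperone list differed in direction between flasks, with medians of 0.43, -0.16 and -0.22 in flasks 1, 2 and 3. In the fermentation and low-oxygen list, 1 of 10 was lower (2.7% of all genes), AN4135 at -0.38, and 0 were higher.

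Genes that the study tabulates for their later change mostly differed little between 5 and 0 min. Of 50 genes tabulated as the most raised over the course, 3 were higher and 2 lower at an unadjusted p under 0.05. Over all genes tested these shares were 4.15% and 2.7%. The list had a median log2 fold change of 0.10. Its medians in flasks 1, 2 and 3 were 0.026, 0.055 and 0.40. The flasks did not start from one level for some members, which were already high in flask 2 at 0 min. There AN2558 had 6.75, 1368 and 2.51 normalized counts in flasks 1, 2 and 3, and AN2959 had 45.9, 2117 and 8.79. In flask 3 a few reads thus make a large ratio for such genes. Others, such as AN2118 at 64.8, 34.0 and 51.5, were not higher in flask 2. Of 42 tabulated wall genes, 2 were higher and 1 lower, with a median of -0.015. Both lists come from tables the study made for this time course, so their direction is not independent of it. *agnE* is in both and had 24.2, 79.5 and 2.28 at 5 min against 13.5, 52.9 and 0 at 0 min. *crhB*, a wall cross-linking enzyme of the same table, had a log2 fold change of -0.29.

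The values at 10 and 20 min follow beside those at 5 min. All 3 comparisons share the 0 min libraries, so their values are only set side by side. Against 0 min, edgeR called 1 gene higher and 1 lower at 10 min (0.0121% each, AN5017 and AN7170, each with an adjusted p of 0.0423) and 0 genes at 20 min (0%), where 479 genes (5.78%) had an unadjusted p under 0.05. At 10 min 732 genes (8.83%) did. Some higher genes were near their 0 min level again at 10 min. AN1356 had log2 fold changes of 1.07, -0.24 and -0.0019 at 5, 10 and 20 min. AN4483 had 0.91, 0.15 and 0.02, *atfA* had 0.62, -0.29 and -0.15, and *flbC* 0.53, 0.13 and 0.14. At 10 min *crnA* was at 0.10 and *meaA* at -0.22. For *crnA* the flasks went opposite ways, at 609, 433 and 278 normalized counts at 10 min against 660, 559 and 138 at 0 min.

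Others had a value at 10 min close to that at 5 min, or further from 0. AN5017 had 1.70, 1.56 and 1.35 at 5, 10 and 20 min, AN6404 had 1.43, 1.25 and 1.09, and *pmcB* had 0.76, 0.84 and 0.44. On the lower side AN7170 had -0.65, -1.21 and -1.49, AN8907 had -0.58, -1.47 and -2.23, and *mirA* had -0.62, -1.28 and -2.10. Directly between 10 and 5 min, edgeR called 0 genes (983 at an unadjusted p under 0.05, 11.9%). Genes picked for their 5 min libraries are not independently tested by that comparison.

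**Figure D5:**
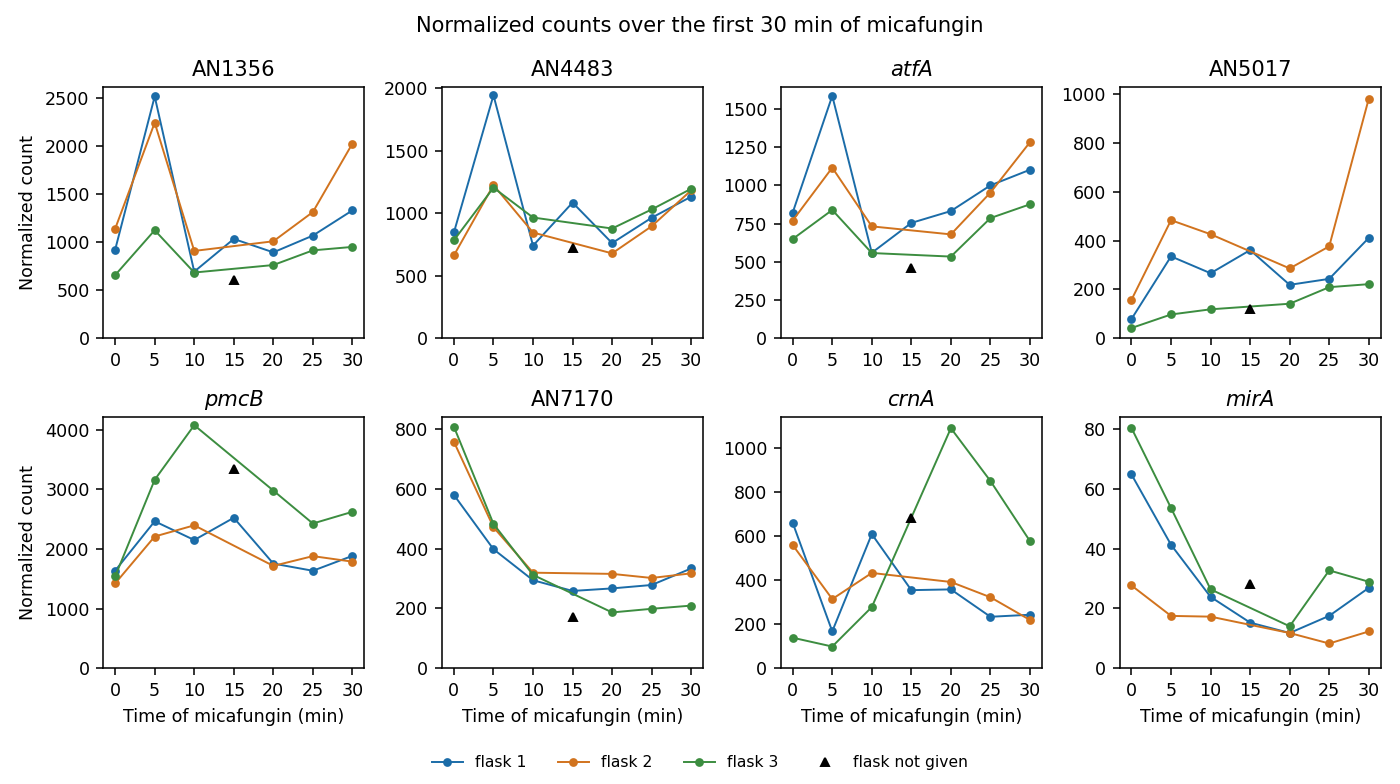
Normalized counts (vertical, linear) of 8 genes are plotted at 0 to 30 min of micafungin, with 1 line for each flask and a triangle for the 15 min library whose flask the column name does not settle. AN1356, AN4483 and *atfA* are higher at 5 min than at 0, 10 or 20 min in each flask and higher at 30 min than at 20 min, where *atfA* exceeds its 5 min count in flasks 2 and 3 (1283 at 30 min in flask 2, and 877 in flask 3), AN5017 and *pmcB* are above their 0 min level at 10 min, AN7170 and *mirA* are below theirs, and *crnA* is lower at 5 min than at 0 or 10 min in each flask.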

How the data were processed

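The members and gene lists described here were chosen with earlier results of these data known. HISAT2 alignment to the FGSC A4 genome from Ensembl Fungi, HTSeq counting per gene and DESeq2 tests against 0 min were the authors' steps. The deposited raw counts, without normalization, were used here. No source states the genome build, annotation release or strand setting, and overlapping genes could share counts. The authors' own fold changes, p-values and 71 normalized columns were not used. Of the 9541 genes in the tables, 8290 had reads in at least 2 libraries at every time point and were tested. RefSeq locus tags matched 7768 of these.

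Counts at 5 min were compared with those at 0 min in R 4.3.3 with edgeR 4.0.16 (TMM, quasi-likelihood test, flask as a block, Benjamini-Hochberg over all genes tested, threshold 0.05). Standard errors were obtained by dividing the size of each log2 fold change by the root of its F statistic. Normalized counts are counts over size factors from DESeq2 1.42.0, estimated over 38 libraries, and log2 ratios within a flask had 0.5 added to each. The flasks were sampled in series, so same-numbered libraries are paired. Across 7357 genes, the correlation between the deviations of a flask from the mean at 5 min and at 0 min was 0.57, 0.894 and 0.898. The edgeR step was run on simulated counts with known fold changes, each the same in all flasks. That run checks the fitting step and not how flasks that differ in their change affect the calls. Alternatives included no block, other normalization and filters, DESeq2, limma-voom 3.58.1, more time points and leaving out each flask. Genes named were the 12 of smallest p in each direction, up to 8 past 2-fold in every flask, up to 4 of largest change in each list, at a mean normalized count of at least 20, and any of the wall integrity, wall synthase, HOG and calcium lists. The flasks were biological replicates per the study's methods. The 37 libraries of the wider fit left out the 1 whose column names another flask than its label. Figures were drawn with matplotlib 3.10.9 in Python 3.11.15.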

Additional observations from a re-analysis of the deposited data

Results flagged for a closer look

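*atfA* is listed because its change against 0 min had opposite signs at 5 and 10 min in every flask. Its log2 fold change was 0.62 at 5 min and -0.29 at 10 min, and the log2 fold change of 10 min over 5 min was -0.91 (adjusted p = 0.171, edgeR's quasi-likelihood test). The 5 and 10 min values share their 0 min libraries. Groups of 3 libraries are too small for a check of single outlying libraries.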

How the results depend on the processing

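With 0 calls at 5 min, any alternative that called genes differed. Genes called higher numbered 8 with no filter on low counts, 24 with DESeq2, 3 with 37 libraries and 2 with 0, 5 and 10 min in the fit, and genes called lower 6 with DESeq2. Leaving out 1 flask gave 0 to 82 higher and 0 to 43 lower, the high ends without flask 1. Without the replicate block, 0 genes were called, and those at an unadjusted p under 0.05 numbered 88 higher and 18 lower. With DESeq2 these were 175 and 97, and with 37 libraries 154 and 76. DESeq2 called 1 gene of the HOG list, 1 of the calcium list and 2 of the nitrogen list. Leaving out a flask gave 0 to 2 calls in the nitrogen list and 0 to 1 in the HOG, calcium, wall synthase, conidiation, sulfur and study's most raised lists. The other lists had 0 calls under each alternative run. Adding 5 in place of 0.5 left 2 genes past 2-fold on the higher side and 0 on the lower, and a mean normalized count of at least 20 left 5 and 0. In 2 flasks at a time these were 22 to 36 and 9 to 21. The log2 fold changes of 46 named genes kept their sign under the 11 alternatives apart from *fksA* (-0.010 to 0.082 with 1 flask left out, negative without flask 1) and *pmcA* (-0.18 to 0.22, negative without flask 3). The nitrogen, iron and HOG counts at an unadjusted p under 0.05 with flasks left out were chosen after seeing the data. The comparison has 3 flasks and 2 residual degrees of freedom, which limits its precision.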

Other observations

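DESeq2 also called genes outside the rule for named genes, and 4 of these are given here, chosen after their values were seen. *met16* (AN4770), named for the yeast enzyme that reduces activated sulfate, is the neighbour of *sC* in the RefSeq assembly. It had 1723, 1105 and 1510 normalized counts at 5 min, against 941, 989 and 532 at 0 min, with no overlap (log2 fold change 0.84, standard error 0.22). AN0742 had 452, 221 and 219 at 5 min against 131, 134 and 116 at 0 min, with flask 1 far above the others at 5 min. AN4113 had 436, 288 and 277 at 5 min against 165, 139 and 202 at 0 min, again with no overlap. On the lower side AN2532 had 1213, 1583 and 1341 at 5 min against 2717, 1795 and 2380 at 0 min. None passed edgeR's quasi-likelihood test, with adjusted p-values of 0.394, 0.181, 0.192 and 0.336 in the order given.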
